A study of Mus musculus with 33 samples.

Results

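The Apex1-mutant mouse embryonic stem cells (mESCs) were compared with the Neil1- and Neil2-mutant mESCs, using all 8 mESC RNA-seq libraries of these genotypes among the 33 libraries of the mouse stem cell experiment. The 2 Apex1 libraries are technical duplicates of 1 mutant clone (#46), and the 6 Neil libraries come from 6 clones, Neil1 #7, #9 and #11 and Neil2 #1, #11 and #14, treated here as 1 group. All lines were derived from E14TG2a, a feeder-independent mESC line, with Cas9 and guide RNA plasmids, and grown undifferentiated on gelatin in serum with LIF. Control clones #1, #4 and #7 had received the plasmid without a guide and are given beside the main results. The same clones were also sequenced as embryoid bodies (EBs) after 8 days, without retinoic acid or with 5 µM retinoic acid from day 4 (EBs + RA). Only the 34551 genes on autosomes were compared, because 1 Neil1 library (#11, replicate 3) lacks counts over most of chromosome X. Since the Apex1 genotype is represented by a single clone, an effect of the mutation and a property of that clone cannot be told apart, and p-values with both duplicates measure technical spread on the Apex1 side. Counts are therefore also given from a fit in which the duplicates were summed to 1 library, which assumes that this library varies like the Neil clones.

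Base excision repair starts with a glycosylase that removes a damaged base and leaves an abasic site. APEX1 is the main endonuclease that cuts the DNA backbone at such sites, after which DNA polymerase beta, XRCC1 and a DNA ligase complete the repair. NEIL1 and NEIL2 are glycosylases for oxidized bases that can also cut the backbone themselves, leaving ends that polynucleotide kinase phosphatase trims without APEX1. APEX1 is also known as Ref-1, a protein that keeps transcription factors such as AP-1 in a reduced state that binds DNA, and abasic sites and strand breaks are known to activate the p53 response.

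The Apex1 clone was made with a pair of guides, shown here because they define what was removed; capitals mark the PAM that follows each guide in the genome.
Apex1_D209_1: tgcccgctaaaagtctcttaTGG
Apex1_D209_2: aagatccggtccaaggctctTGG
The first matched the mouse genome (NCBIM37) exactly once, at chr14:51546001-51546020 on the plus strand. The second matched at chr14:51546586-51546605 on the plus strand and also at chr1:45576662-45576681 on the minus strand, where the annotation lists 0 genes. Cuts at both sites on chromosome 14 would remove 585 bases, chr14:51546018-51546602, which hold 11 bases of exon 4 and 472 of the 684 bases of exon 5 of Apex1, the last of its 5 exons. This is 483 of the 951 coding bases (50.8%). All 585 bases also lie in exons of the overlapping gene Tmem55b. The exact position follows from the guides alone, since the allele itself was not sequenced in these data. The study reported a smaller genotyping PCR product for this clone, which it read as the intended deletion. It also showed a western blot for APEX1 and, citing both among its evidence, presented the line as a checked knockout.

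In RNA counts the targeted gene was not lower in its own mutant but higher. Apex1 (ENSMUSG00000035960, chr14:51544643-51546814) reached 77.0 and 74.1 CPM (counts scaled to the size of the library) in the Apex1 libraries, between 6.29 and 22.6 CPM in the Neil libraries (median 10.8) and 8.36, 7.89 and 18.3 CPM in the controls. The Apex1 values thus lay above every other mESC library, by 6.34-fold against Neil (log2 fold change 2.66 ± 0.29 SE; FDR 8.7e-05 in edgeR's quasi-likelihood test, 0.00302 with duplicates summed). The same clone gave 58.4 and 83.9 CPM in EBs, where the Neil libraries lay between 5.06 and 16.2 CPM.

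Whether this count covers the deleted part depends on whether reads were counted by strand. Exons 4 and 5 lie wholly within exons of Tmem55b, a phosphatase gene on the opposite strand, so that 877 of the 1422 exon bases of Apex1 are shared and the 545 unshared bases, exons 1 to 3, hold 0 of the deleted bases. Whether the counting used strand, and so whether shared bases entered the count, is not given in the sources used here. The kit was unstranded, and 6.18% to 7.09% of the entries in the 8 libraries fell on no gene. Counting by strand would add reads of the opposite strand to that share. If strand was ignored, reads on shared bases would fit both genes, and the count would rest on exons 1 to 3. Tmem55b itself was at 20.4 and 25.9 CPM in the Apex1 libraries against 25.7 to 37.6 CPM in Neil, a log2 fold change of −0.45 that stayed under the fold limit used below. It was called lower with length and GC removed (−0.55, FDR 0.019 in edgeR's test) and against the controls, which were at 41.4, 38.7 and 37.5 CPM (−0.76, FDR 0.0107). The 585 bases between the cuts are among the 4489 exon bases of Tmem55b. The part of their loss in these values was not tested.

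**Figure D1:**
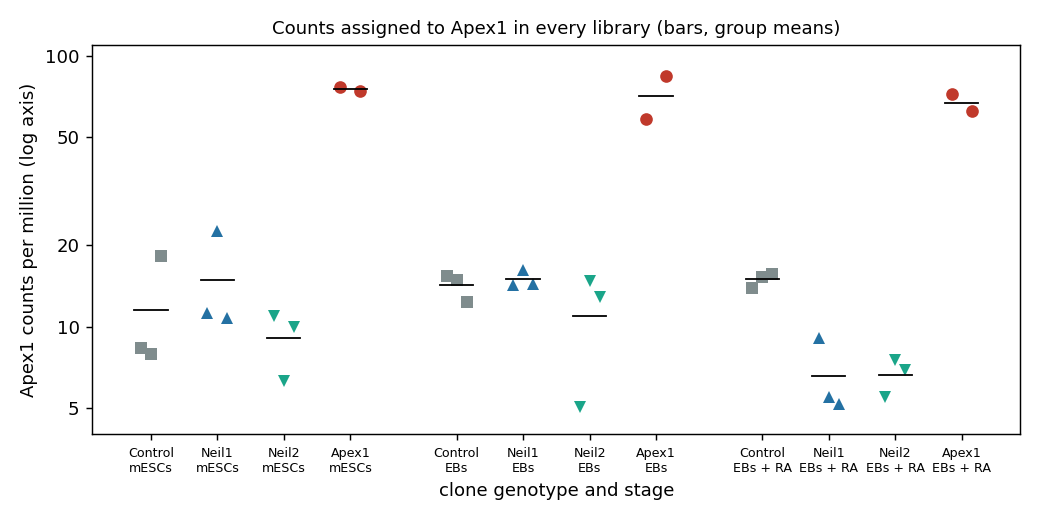
CPM assigned to Apex1 (log axis) in every control, Neil1, Neil2 and Apex1 library at the 3 stages, 1 point per library with bars at group means. The Apex1 libraries lie at 58.4 CPM or more at every stage, and the highest mESC value of any other genotype is 22.6 CPM.

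Of the neighbouring genes, Osgep, which shares the promoter region of Apex1 and encodes a tRNA-modifying enzyme, fell in mESCs. It was at 15.2 and 16.6 CPM in the Apex1 libraries, below all Neil libraries (27.1 to 35.8 CPM) and all controls (26.4 to 37.4 CPM; log2 fold change −0.99, FDR 3.4e-04, 0.0116 with duplicates summed). In EBs and EBs + RA its log2 fold changes of 0.17 and 0.05 did not pass. Farther out, Tep1, a telomerase-associated gene, and Pnp, a purine salvage enzyme, had log2 fold changes of −0.13 and −0.04 (FDR 0.479 and 0.864).

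The Neil genes could not be used to tell the groups apart by count. Neil1 was at 7.60 and 8.98 CPM in the Apex1 libraries and between 2.56 and 31.9 CPM in the Neil libraries, and Neil2 at 7.83 and 8.87 CPM against 3.82 to 9.62 CPM. Both ranges overlapped, and neither difference passed (FDR 0.398 and 0.483).

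Across the autosomes, a gene was called differentially expressed where its FDR was under 0.1 and its log2 fold change beyond 0.5 in either direction. Of 15629 genes tested, 5091 (32.6%) were called, 2530 raised (16.2%) and 2561 lowered (16.4%) in the Apex1 clone. With duplicates summed, 3306 of 16046 genes (20.6%) were called, 1711 raised (10.7%) and 1595 lowered (9.94%), and 3263 genes were called in the same direction by both fits. Both Apex1 libraries lay above all 6 Neil libraries for 3766 genes (24.1%) and below all of them for 3630 (23.2%). Such shares are the background against which each gene group below is read, and the median log2 fold change of all tested genes was 0.00.

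Gene length moved with the difference. With genes split into 5 classes by exon length, the median log2 fold change was −0.32 in the shortest class, with 333 raised and 927 lowered, and 0.22 in the longest, with 782 raised and 185 lowered. Genes rich in GC were shifted down, with a median of −0.23 in the highest of 5 GC classes and 0.13 in the lowest. Counts on genes ran from 24836041 to 32503071 over the 8 libraries, and each library's own shift between long and short genes was 0.47 and 0.33 in the Apex1 libraries and between −0.33 and 0.08 in Neil. The part of this trend in the gene-level differences was not tested, but a fit with length and GC removed per library called 4546 genes (29.1%), 2462 raised (15.8%) and 2084 lowered (13.3%). Its counts are given below for the lists on which the text dwells.

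Against the 3 control clones, in a fit of all 11 mESC libraries, the Apex1 clone had 3088 called genes of 15888 (19.4%), 1444 raised (9.09%) and 1644 lowered (10.3%), and 686 with duplicates summed. This comparison uses the same Apex1 libraries, so its values serve only to place the controls. Control replicate 3 differed from the other controls more than those differed from each other (chi-squared per degree of freedom of 66.7 and 67.4 against 10.2), which widens the control range of many genes.

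The largest rises and falls were taken among genes called in both fits, with an average of at least 2 log2 CPM and no overlap between Apex1 and Neil libraries. Such genes numbered 2404, 1070 raised and 1334 lowered. The 12 largest in each direction follow.

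Cyyr1, a membrane protein gene (chr16:85453103-85553642), rose most. It was at 23.9 and 21.8 CPM in the Apex1 libraries, at most at 3.34 CPM in Neil (median 2.65) and at 6.05, 5.39 and 4.90 CPM in controls (9.29-fold against Neil; log2 3.21 ± 0.24, FDR 8.2e-06, summed 4.5e-04). Its Apex1 values were higher than those of every Neil and every control library, and it was also raised in EBs (1.61) and EBs + RA (2.79). Sfn, which encodes 14-3-3 sigma, a G2 checkpoint protein and p53 target, stood at 97.6 and 110.4 CPM against 17.1 to 37.7 CPM in Neil (median 23.4) and 28.9, 30.2 and 35.9 CPM in controls (log2 2.09 ± 0.22, FDR 6.8e-05). Slc40a1, the iron exporter ferroportin, was at 17.6 and 17.1 CPM against 3.23 to 5.03 CPM in Neil and 5.39 to 7.91 CPM in controls (log2 2.05). For these genes the controls lay nearer to the Neil clones than to the Apex1 clone.

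For other rises the controls lay between or beside the Apex1 values. Ccnd2, the G1 regulator cyclin D2 (chr6:127075797-127101066), was at 49.8 and 44.9 CPM in the Apex1 libraries, between 6.76 and 14.2 CPM in Neil (median 7.80) and at 30.6, 26.3 and 29.2 CPM in controls. All 3 controls were thus between the groups, and the rise of 5.19-fold against Neil (log2 2.38 ± 0.23, FDR 3.9e-05, summed 0.00136) compares with a log2 fold change of 0.72 against controls (FDR 0.078). Kif1a, a motor protein of synaptic vesicle transport, was at 14.0 and 14.5 CPM against 2.40 to 4.74 CPM in Neil, and the controls (16.7, 14.9 and 5.63 CPM) overlapped the Apex1 clone. Tagln, the actin-binding protein transgelin, had 14.3 and 16.1 CPM against 1.25 to 3.37 CPM in Neil and 3.97 to 8.77 CPM in controls.

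The remaining rises were A930011O12Rik (log2 2.83), a gene of unnamed function, Trpa1 (2.36), an irritant-gated ion channel, Igsf9b (2.13), a synaptic adhesion gene, and Fgfbp1 (2.1), an FGF carrier, beside Apex1 itself. A shorter entry with the symbol Glb1 (ENSMUSG00000079260), which overlaps the beta-galactosidase gene, rose by 2.1 on the log2 scale. The longer Glb1 entry did not pass (0.11, FDR 0.438), so that the reads of this pair are uncertain.

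Immediate early genes led the falls. Egr1, an early growth response transcription factor, was at 8.23 and 10.5 CPM in the Apex1 libraries, between 45.5 and 80.0 CPM in Neil (median 71.1) and at 61.6, 66.4 and 129.7 CPM in controls. The Apex1 clone was below every other mESC library, by 7.32-fold against Neil (log2 −2.87 ± 0.22, FDR 8.8e-06, summed 4.5e-04). Fosb and Fos, subunits of AP-1, fell too, Fosb to 0.655 and 0.406 CPM from 3.21 to 15.2 CPM (log2 −3.67 ± 0.63, FDR 0.00114) and Fos to 4.13 and 4.66 CPM from 12.8 to 46.6 CPM (log2 −2.44 ± 0.42, FDR 0.00121). The lowest control was at 0.850 CPM for Fosb and at 7.57 CPM for Fos, above the Apex1 values in both cases.

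Aurkc, a kinase of meiotic chromosome segregation, was at 3.67 and 3.88 CPM against 18.2 to 26.1 CPM in Neil (median 21.5) and 9.03, 10.2 and 17.0 CPM in controls (log2 −2.53 ± 0.18, FDR 8.2e-06). It fell in EBs as well (−3.02). Gstp2, a glutathione transferase with a close copy in Gstp1, was at 2.82 and 2.99 CPM against 14.3 to 23.3 CPM in Neil, with the controls at 3.70, 4.81 and 7.65 CPM just above the Apex1 values (log2 −2.68). Msln, the surface protein mesothelin, was at 7.93 and 7.68 CPM against 24.5 to 57.2 CPM in Neil, while the controls (4.63, 6.85 and 10.4 CPM) enclosed the Apex1 values (log2 0.10 against controls, FDR 0.85). The other falls were Cldn3 (−2.90), a tight junction protein, Chac1 (−2.71), an enzyme of glutathione breakdown, Aox3 (−2.49), an aldehyde oxidase, Lipc (−2.45), hepatic lipase, Obox6 (−2.42), an oocyte homeobox gene, and Emid2 (−2.40), a collagen-like gene. For Aox3 the controls (1.05, 0.654 and 3.20 CPM) enclosed the Apex1 values of 1.25 and 1.44 CPM. Lipc did not pass against controls (log2 −1.01, FDR 0.12 in edgeR's test). In both genes the Neil clones were called above controls (log2 2.22 for Aox3 and 1.45 for Lipc). Cldn3, Chac1, Obox6 and Emid2 were called lower in the Apex1 clone against controls as well.

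**Figure D2:**
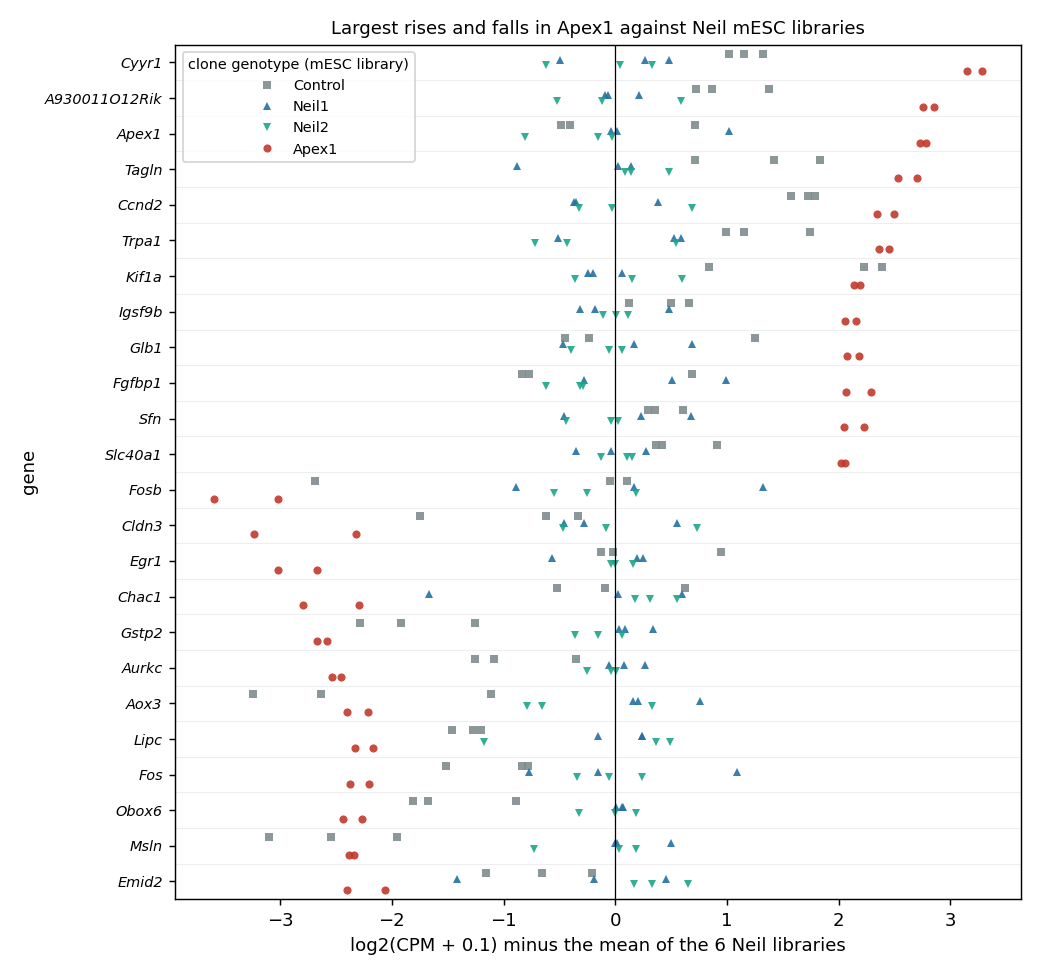
The 12 largest rises and falls, as log2(CPM + 0.1) of each mESC library minus the mean of the 6 Neil libraries. The 2 Apex1 points lie apart from the Neil points in every row, because genes were selected for this. The control points lie with Neil for Egr1 and Sfn but with Apex1 for Msln and, in 2 of 3 controls each, for Kif1a and Aox3.

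Targets of p53, the transcription factor that responds to DNA damage, were raised in the Apex1 clone. Of 39 targets tested, 19 rose and 0 fell, against 16.2% and 16.4% of all genes, and their median was 0.48 on the log2 scale. With duplicates summed 18 rose and 0 fell, and with length and GC removed 19 rose and 0 fell (median 0.50). The summed level of the list was 5969 and 6056 CPM in the Apex1 libraries, between 3899 and 4354 CPM in Neil and between 4213 and 4691 CPM in controls, without overlap. Against controls 14 of 39 rose and 1 fell.

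The leading members regulate p53 itself, the cell cycle or apoptosis. Trp53inp1 (chr4:11083578-11101526), a p53-induced nuclear protein, was at 718 and 662 CPM in the Apex1 libraries against 212 to 274 CPM in Neil (median 252) and 302, 274 and 244 CPM in controls, a rise of 2.81-fold (log2 1.49 ± 0.11, FDR 8.2e-06, summed 4.5e-04). Plk2, a polo-like kinase, was at 196 and 199.6 CPM against 64.8 to 84.4 CPM in Neil and 76.0 to 103 CPM in controls (2.77-fold). Pmaip1, the BH3-only apoptosis gene Noxa, was at 123 and 120.0 CPM against 42.8 to 52.2 CPM in Neil and 46.5 to 58.2 CPM in controls (2.61-fold). In each of these 3 genes both Apex1 libraries were above all 9 other mESC libraries.

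Mdm2, the ubiquitin ligase that degrades p53, stood at 366 and 364 CPM against 166 to 202 CPM in Neil and 218, 199 and 207 CPM in controls (1.97-fold; log2 0.98 ± 0.10, FDR 8.4e-05, summed 0.00369). Ccng1, cyclin G1, was at 666 and 641 CPM against 289 to 396 CPM in Neil and 314 to 375 CPM in controls (1.89-fold). Perp (2.44-fold), a desmosomal apoptosis effector, Apaf1 (2.04-fold), the core of the apoptosome, Btg2 (2.03-fold), an antiproliferative gene, and Zmat3 (1.96-fold), an RNA-binding protein, rose as well. Smaller rises were found for the repair genes Ercc5 (log2 0.87) and Polk (0.79), and for Ckap2 (0.74), Phlda3 (0.62) and Aen (0.59), of which Aen was not called with length and GC removed.

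Cdkn1a, the cell cycle inhibitor p21, was at 89.9 and 95.5 CPM against 32.3 to 70.7 CPM in Neil (log2 0.79 ± 0.20, FDR 0.0103, summed 0.0754). The controls, at 72.4, 78.6 and 56.6 CPM, reached closer, and against them the difference did not pass (0.42, FDR 0.242). The death receptor Fas was called only with both duplicates (0.65, summed FDR 0.198). Trp53 itself was at 344 and 351 CPM within a Neil range of 270.5 to 407 CPM, and neither it nor the apoptosis effectors Bax and Bbc3 passed (FDR 0.329, 0.284 and 0.927).

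**Figure D3:**
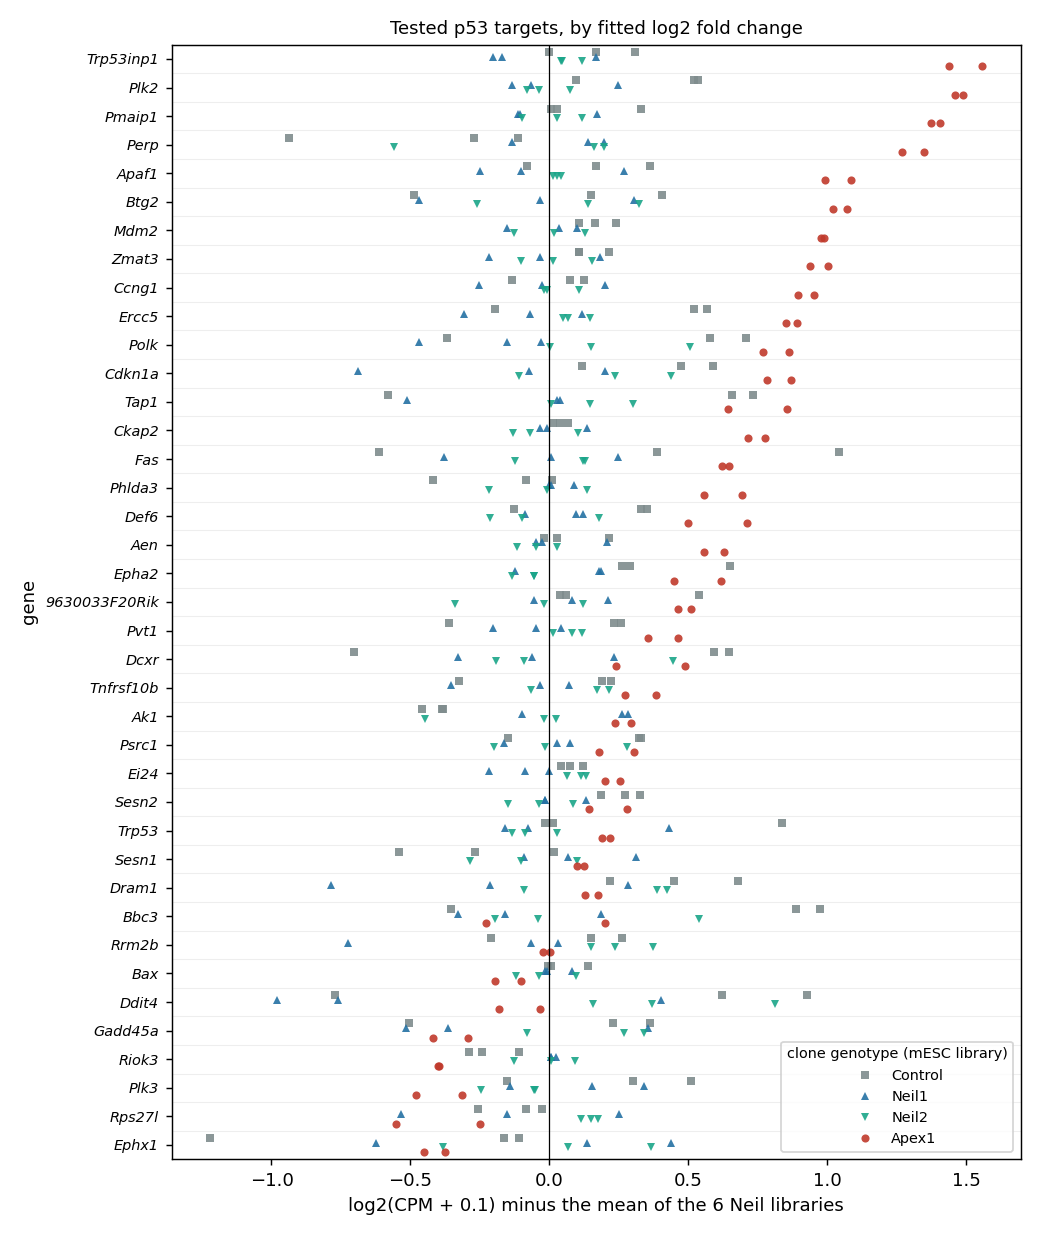
The p53 targets tested, as log2(CPM + 0.1) of each mESC library minus the mean of the 6 Neil libraries, ordered by log2 fold change. The Apex1 points lie to the right of every Neil point for 24 genes and to the left of every Neil point for 2. Over all tested genes these shares were 24.1% and 23.2%.

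In the BCL2 family, which sets the threshold for mitochondrial apoptosis, 1 of 15 genes rose, the p53 target Pmaip1, and 5 fell (1 and 3 with duplicates summed). Over all genes 16.2% rose and 16.4% fell, or 10.7% and 9.94% with duplicates summed. The falls included pro-apoptotic members. Bak1, a pore-forming effector, was at 41.3 and 42.4 CPM against 63.2 to 79.0 CPM in Neil (log2 −0.77), and the BH3-only genes Hrk and Bik fell from low levels (−1.73 and −1.51), Hrk to 0.819 and 1.11 CPM.

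Among 15 D cyclins and cell cycle inhibitors, 6 rose and 4 fell (4 and 4 with duplicates summed), against 16.2% and 16.4% of all genes. The 3 D cyclins, partners of CDK4 and CDK6 in G1, did not move alike. Beside Ccnd2, Ccnd1 rose to 146 and 140.0 CPM from 48.9 to 112 CPM in Neil (log2 0.95, FDR 0.00458), while 1 control reached 158 CPM. Ccnd3 fell to 141 and 150.0 CPM from 275 to 347 CPM (log2 −1.09, FDR 1.2e-04), below all controls (259 to 288 CPM). Rb1, the retinoblastoma protein, rose (0.61), though not with length and GC removed.

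Inhibitor genes of this group other than Cdkn1a fell where they were called. Cdkn2a, the Ink4a/Arf locus, was at 7.70 and 9.02 CPM against 18.5 to 33.4 CPM in Neil (log2 −1.63, FDR 2.7e-04), and the controls at 9.41, 13.5 and 6.35 CPM enclosed the Apex1 values. Cdkn1b, p27, and Cdkn2c, p18, had log2 fold changes of −0.88 and −1.25, and neither difference from the controls passed (FDR 0.511 and 0.779).

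In base excision repair itself, no glycosylase was called in both fits. Of 11 glycosylases 0 rose and 1 fell, Neil3 (−0.52, FDR 0.0551), which was lost with duplicates summed (0.222). Downstream of the glycosylases, 3 of 20 genes rose, Apex1 among them, and 4 fell (1 and 4 with duplicates summed), about the share of all genes called, and the falls included polymerase, ligase and break-sensing genes. The summed level of these 20 genes was 2501 and 2503 CPM in the Apex1 libraries. It was between 2912 and 3213 CPM in Neil and between 2800.2 and 3225 CPM in controls. Genes with high counts such as Parp1 weigh most in such a sum, while the median over these genes was 0.03 on the log2 scale.

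Without Apex1 replicate 1 the list had 1 rise and 3 falls. Pold2, an accessory subunit of DNA polymerase delta, was at 67.5 and 71.8 CPM against 119 to 150.5 CPM in Neil and 145 to 161 CPM in controls (log2 −0.94 ± 0.12, FDR 2.5e-04, summed 0.0103). Its catalytic partner Pold1 fell less (−0.57), and not with length and GC removed. Lig1, the replicative DNA ligase, was at 266 and 257 CPM against 399 to 471 CPM in Neil and 287 to 399 CPM in controls (−0.78, FDR 3.7e-04). Parp1, the sensor of strand breaks, was at 643 and 641 CPM against 869 to 981 CPM in Neil and 776 to 934 CPM in controls (−0.54, FDR 0.00207). Both Apex1 libraries were the lowest of all mESC libraries for Pold2, Lig1 and Parp1. Lig3 and Fen1, a ligase and a flap endonuclease, were raised only before the duplicates were summed (summed FDR 0.122 and 0.221), and Polb and Xrcc1 stayed under the fold limit (−0.45 and 0.40).

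In the other repair pathways, 10 of 50 genes rose and 1 fell (8 and 1 with duplicates summed, and 7 and 3 with length and GC removed), near the background of rises and below that of falls. Atm, the kinase that signals double-strand breaks, was at 88.3 and 76.0 CPM against 25.8 to 49.7 CPM in Neil and 35.9, 32.2 and 65.8 CPM in controls (log2 1.28 ± 0.19, FDR 4.9e-04). Fancm, a helicase of crosslink repair, was at 126 and 116 CPM against 47.3 to 77.9 CPM in Neil (1.02). Lig4, the ligase of nonhomologous end joining, was at 26.2 and 23.9 CPM against at most 17.1 CPM in Neil (0.73), with 1 control at 24.2 CPM. Xrcc2 and Trp53bp1, genes of double-strand break repair, rose by 0.58 and 0.71, and neither was called with length and GC removed. H2afx, the histone that is phosphorylated at breaks, was the fall, at 157 and 204 CPM against 248 to 445 CPM in Neil, although 1 control lay at 215 CPM (−1.02).

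AP-1 and immediate early genes had more falls than rises, Fos, Fosb and Egr1 included. Of 26 tested, 4 rose and 10 fell, against 16.2% and 16.4% of all genes (2 and 7 with duplicates summed, 1 and 7 without Apex1 replicate 1). With length and GC removed 4 rose and 6 fell, and Fos, Fosb and Egr1 were 3 of these 6. Jun was at 11.5 and 12.7 CPM against 16.6 to 48.4 CPM in Neil (−1.35, FDR 0.0064), and the controls at 36.2, 38.1 and 8.26 CPM overlapped the Apex1 values. Jund (−1.35) and the MAP kinase phosphatase Dusp1 (−1.16) fell, and Junb (−0.78) fell only before summing. Fosl1, an AP-1 subunit, rose from a very low level (0.623 and 0.628 CPM, log2 1.86). Myc and Spry4, targets of growth factor signalling, were raised by 0.82 and 0.70 before summing and not after (FDR 0.297 and 0.14).

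The naive pluripotency network, which holds mESCs in a ground state, fell more often than it rose. Of 32 genes 3 rose and 9 fell, against 16.2% and 16.4% of all genes (0 and 5 with duplicates summed, 0 and 3 without Apex1 replicate 1, 0 and 6 without replicate 2). With length and GC removed 2 rose and 4 fell, where 13.3% of all genes fell, so the share of falls was no longer above the background. The summed level was 8977 and 9158 CPM in the Apex1 libraries, 11133 to 12732 CPM in Neil and 11040.2 to 11389 CPM in controls. Pou5f1, which encodes OCT4, was at 639 and 709 CPM against 816 to 1147 CPM in Neil and 897 to 918 CPM in controls (log2 −0.58 ± 0.13, FDR 0.00523, summed 0.0618), and it was under the fold limit with length and GC removed. Klf4 fell before summing (−0.69, summed FDR 0.12).

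The other defining genes remained at high levels. Sox2 and Nanog had log2 fold changes of −0.32 and −0.39, under the fold limit, and Esrrb and Zfp42 did not pass (0.07 and −0.15, FDR 0.656 and 0.382), with Esrrb at 578 and 582 CPM. Klf2 (−0.69), a naive transcription factor, and Tcl1 (−1.22), an AKT coactivator, fell, as did Dppa5a (−0.71), an RNA-binding protein, of which Klf2 and Dppa5a were not called with length and GC removed. Spp1, secreted osteopontin, was at 278 and 274 CPM against 690.5 to 1281 CPM in Neil and 347, 344 and 535 CPM in controls (−1.76, FDR 1.3e-04).

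Genes of the formative and primed epiblast, the stage after naive pluripotency, rose in part. Of 17 tested 7 rose and 0 fell, against 16.2% and 16.4% of all genes. With duplicates summed 5 rose and 0 fell, and with length and GC removed 7 rose and 1 fell. Against controls 4 rose and 4 fell. The summed level, 519 and 523 CPM in the Apex1 libraries, lay within the Neil range of 491 to 676 CPM and below the controls (575 to 800.2 CPM). Fgf5, the standard marker of primed epiblast, was at 2.82 and 2.88 CPM against 0.171 to 0.564 CPM in Neil (median 0.242) and 0.299, 0.616 and 0.526 CPM in controls (9.02-fold; log2 3.17 ± 0.35, FDR 1.0e-04, summed 0.00242). Wnt8a, a ligand of the posterior epiblast, was at 8.98 and 9.02 CPM against 0.404 to 2.52 CPM in Neil and 2.20 to 2.51 CPM in controls (8.29-fold). For both, the Apex1 libraries were above all others, and Fgf5 stayed far below the level of the naive genes. Sox4, a factor related to Sox11, rose by 1.36. Cdh2, N-cadherin, and Sox11, a neural and progenitor factor, rose by 1.54 and 1.58, but the controls (4.01 to 5.81 CPM) overlapped the Apex1 values of Sox11 (4.88 and 6.43 CPM).

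In the Nodal pathway, which patterns the epiblast, 4 of 18 genes rose and 5 fell (3 and 3 with duplicates summed). The ligand Nodal was at 198 and 216 CPM against 91.5 to 105 CPM in Neil (median 99.8) and 114, 123 and 130.5 CPM in controls (2.11-fold; log2 1.08 ± 0.10, FDR 2.5e-05, summed 0.00168), and Skil, a feedback inhibitor of SMADs, was at 242 and 219 CPM against 101 to 131 CPM (1.06). Both were beyond every Neil and control library. Over all genes 16.2% rose and 16.4% fell. With length and GC removed 4 of the 18 Nodal pathway genes rose and 4 fell, so the list held as many falls as rises in that fit.

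Primitive streak and early mesoderm genes, which mark the start of gastrulation, rose from low levels. Of 16 tested 9 rose and 0 fell, against 16.2% and 16.4% of all genes, with a median of 0.57. With duplicates summed or without either Apex1 replicate 4 rose and 0 fell. Summing called 10.7% of all genes as raised and 9.94% as lowered. T, the brachyury gene, was at 2.16 and 2.55 CPM against 0.270 to 0.998 CPM in Neil (median 0.356) and 0.688 to 1.12 CPM in controls (log2 2.37 ± 0.38, FDR 7.8e-04). Cdx2, a caudal homeobox gene of posterior mesoderm and trophoblast, was at 1.97 and 2.88 CPM against 0.169 to 0.954 CPM (2.57). Evx1 and Wnt3, further posterior genes, rose by 1.99 and 1.59. Eomes and Cdx1 were called only before summing (0.53 and 0.83, summed FDR 0.145 and 0.128). The summed level of the list was 51.4 and 55.6 CPM in the Apex1 libraries and between 27.9 and 39.4 CPM in Neil, and in bulk RNA a few cells with high levels and many with low levels cannot be told apart.

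Wnt ligands and feedback targets rose as well against Neil. Of 27 tested 10 rose and 1 fell, against 16.2% and 16.4% of all genes (6 and 0 with duplicates summed or without Apex1 replicate 1, 12 and 0 with length and GC removed), with a median of 0.45. Axin2, the general feedback target of beta-catenin, was above 19 CPM in both Apex1 libraries against 7.75 to 15.3 CPM in Neil and 8.62 to 14.0 CPM in controls (0.97, FDR 0.00395). Sp5, another direct target, was at 2.59 and 3.62 CPM against 0.404 to 1.12 CPM (2.08), and the ligand Wnt5a at 3.38 and 3.99 CPM against 0.769 to 2.20 CPM (1.53). Sp8, a factor related to Sp5, rose by 1.46. The summed level of the list was 291 and 295 CPM in the Apex1 libraries and between 233 and 279.7 CPM in Neil. The controls, between 290.3 and 315 CPM, enclosed the Apex1 values. Against controls 7 of 27 rose and 3 fell in the Apex1 clone, and 0 rose and 3 fell in the Neil clones. The ligands Wnt3 and Wnt3a and the target Cdx1 stand on both this and the streak list, and Wnt8a on both this and the formative list. Of 20 BMP ligands, ID genes and inhibitory SMADs 6 rose and 4 fell (4 and 2 with duplicates summed), among them Msx2 (1.48) and the secreted antagonist Fst (1.62).

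Germline and meiosis genes fell. Of 36 tested 5 rose and 15 fell, against 16.2% and 16.4% of all genes (4 and 14 with duplicates summed and also with length and GC removed), and the list's summed level was 773 and 783 CPM in the Apex1 libraries, between 1207 and 1362 CPM in Neil and between 898 and 984 CPM in controls. The controls thus lay between the groups. Against them 8 of 36 fell and 2 rose in the Apex1 clone, while 9 rose and 4 fell in the Neil clones.

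Smc1b, the meiotic cohesin subunit (chr15:84895121-84962387), was at 13.7 and 12.4 CPM against 54.0 to 74.0 CPM in Neil (median 65.7) and 35.9, 29.9 and 18.1 CPM in controls (5.03-fold lower; log2 −2.33 ± 0.15, FDR 5.5e-06, summed 4.5e-04). Hormad1, a meiotic axis protein, was at 37.6 and 35.3 CPM against 87.7 to 112 CPM, and the controls at 47.2, 47.4 and 37.3 CPM overlapped the Apex1 values (−1.48). Syce2, a part of the synaptonemal complex, was at 35.7 and 35.4 CPM against 68.1 to 144 CPM in Neil and 52.2 to 111 CPM in controls (−1.57). Hormad2 (−1.70) and the piRNA factors Tdrd12 (−1.40) and Mael (−1.29) fell. The germ cell helicase Ddx4 went the other way, at 44.3 and 44.4 CPM against 9.77 to 27.6 CPM in Neil and 22.2 to 31.8 CPM in controls (1.26), with Tdrd1 (2.14) and Tex15 (0.79), the last not called with length and GC removed.

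Markers of the 2-cell-like state, a rare mESC state that resembles the early embryo, were higher than in Neil and overlapped the controls. Of 10 tested 6 rose and 0 fell (5 and 0 with duplicates summed), against 16.2% and 16.4% of all genes. Zscan4c was at 62.2 and 60.0 CPM against 15.2 to 36.3 CPM in Neil, with the controls at 42.7, 46.9 and 71.0 CPM around the Apex1 values (log2 1.04 against Neil, 0.19 against controls with FDR 0.674). Zscan4d gave the same order (1.02 against Neil). The Zscan4 genes are near-identical copies, so their separate counts are uncertain.

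Among imprinted genes, expressed from 1 parental allele, 14 of 56 rose and 5 fell (10 and 2 with duplicates summed). The background was 16.2% and 16.4% of all genes, so the share of falls lay below it. Calcr, the calcitonin receptor, was at 4.29 and 3.62 CPM against 0.257 to 0.694 CPM in Neil and 0.971 to 1.35 CPM in controls (2.82, FDR 6.8e-05). Magel2, a gene of the Prader-Willi region, was at 4.39 and 4.62 CPM against 0.882 to 2.09 CPM in Neil (1.60), and the controls at 2.87, 4.15 and 4.45 CPM overlapped it. The growth factor Igf2, at 58.4 and 53.9 CPM, was above all Neil (7.13 to 29.6 CPM) and all controls (6.23 to 32.2 CPM), but these ranges are wide and the rise did not hold with duplicates summed (FDR 0.118). Nor did the rise of Grb10 or the fall of H19 (FDR 0.21 and 0.206).

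Antioxidant targets of NRF2 fell more often than they rose, with 3 of 39 raised and 12 lowered (2 and 8 with duplicates summed, 1 and 7 without Apex1 replicate 1, 3 and 6 with length and GC removed). Over all genes 16.2% rose and 16.4% fell. With length and GC removed 13.3% of all genes fell, so the 6 falls of that fit were near the background. Gstp1, a glutathione transferase, was at 8.98 CPM in both Apex1 libraries against 17.7 to 22.5 CPM in Neil (−1.14), and Blvrb (−1.37), biliverdin reductase B, and Tkt (−0.73), transketolase, fell. Me1, malic enzyme, was at 71.3 and 66.0 CPM against 113 to 173 CPM in Neil (−1.08), and the controls at 48.3 to 75.4 CPM enclosed the Apex1 values. Gclc, the limiting enzyme of glutathione synthesis, rose to 85.6 and 84.9 CPM from 36.5 to 58.4 CPM (0.88). Gpx4, a peroxidase of lipid peroxides, was called only before summing (−0.65, summed FDR 0.102).

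Of 30 interferon-stimulated and nucleic acid sensing genes 3 rose and 6 fell, against 16.2% and 16.4% of all genes. With duplicates summed 2 rose and 6 fell, where 9.94% of all genes fell. Bst2, the antiviral protein tetherin, was at 18.2 and 22.2 CPM against 42.7 to 79.0 CPM in Neil (−1.58), and Oas1a, an RNA sensor with close copies, fell by 1.52. Of 20 nuclear-encoded mitochondrial DNA factors 1 rose and 3 fell, among them Ucp2 (−1.04), an uncoupling protein, and of the 9 TET and DNMT enzymes of DNA methylation 1 rose and 1 fell (1 and 2, and 1 and 0, with duplicates summed).

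Markers of other cell types were mixed in direction. Shares of all genes were 16.2% raised and 16.4% lowered, or 10.7% and 9.94% with duplicates summed. The 4 neural markers tested did not pass, with the progenitor filament gene Nes at 23.1 and 23.2 CPM against a Neil median of 20.6 CPM. Of 14 primitive and visceral endoderm markers 4 rose and 2 fell (1 and 1 with duplicates summed), with Foxa2 at 1.64 and 1.29 CPM against 0.147 to 0.513 CPM in Neil (2.30) and Hnf4a lower (−0.97). Dab2 rose only before summing (1.31, summed FDR 0.149). Of 8 trophoblast markers 4 rose and 2 fell (1 and 0 with duplicates summed), with Elf5 too low to be tested, and of 5 fibroblast markers 2 rose and 1 fell (2 and 0 with duplicates summed). Fbn1, fibrillin, was at 17.6 and 15.6 CPM against 3.52 to 8.20 CPM in Neil and 5.73 to 7.24 CPM in controls (1.57), and Col1a2, a collagen chain, at 1.64 and 1.48 CPM, which the controls also reached (1.13 to 1.61 CPM). The summed level of the fibroblast list was 35.9 and 37.6 CPM in the Apex1 libraries, within the 23.8 to 38.5 CPM of Neil. The part of these markers in the differences above was not tested.

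**Figure D4:**
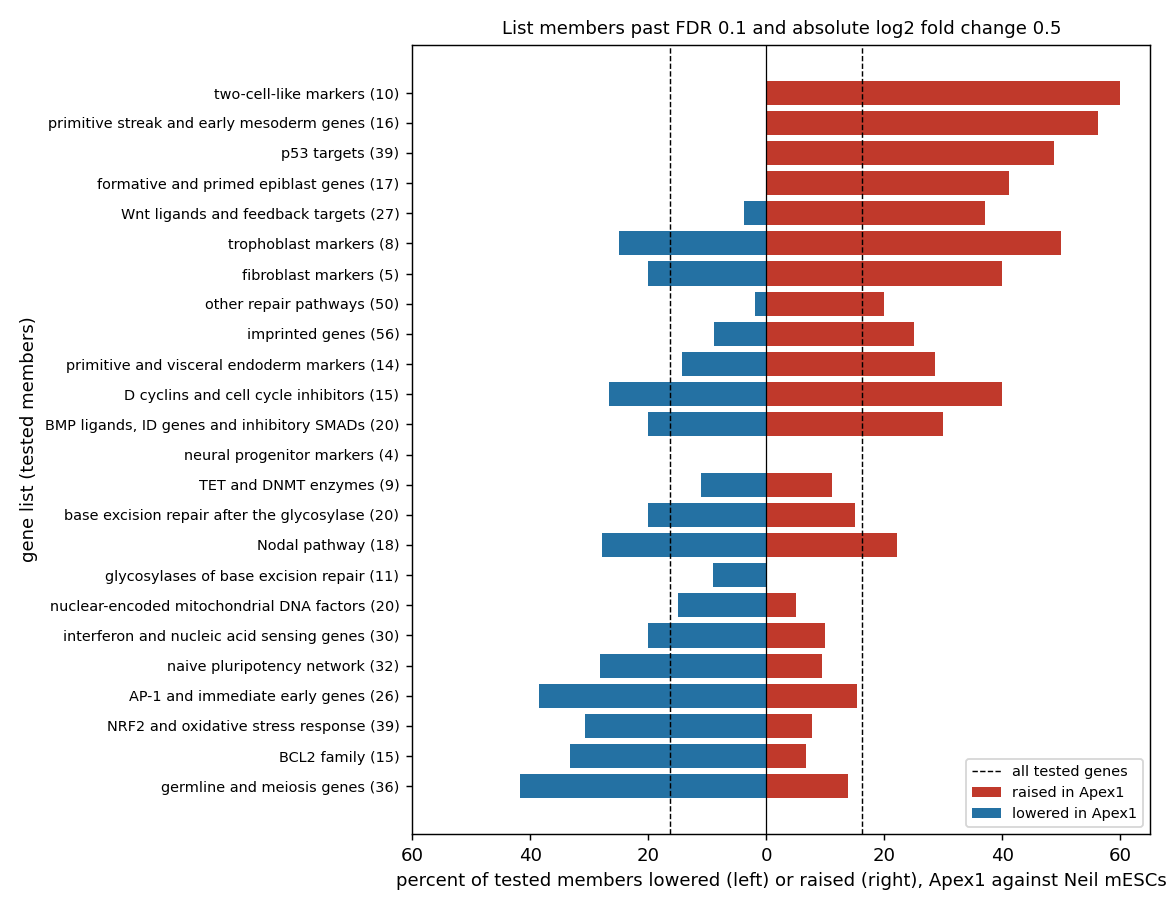
Percent of the tested members of each gene list that were raised (right) or lowered (left) in Apex1 against Neil mESCs, with dashed lines at the shares of all tested genes (16.2% and 16.4%). Most lists extend beyond a dashed line. Among them are the p53, streak and 2-cell-like lists on the raised side and the germline and AP-1 lists on the lowered side.

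Along the chromosomes, counts of the Apex1 clone were shifted up on much of chromosome 12. Over 389 genes with at least 5 CPM, the median log2 difference from the Neil libraries was 0.19 and 0.16 in the Apex1 libraries, between −0.08 and 0.07 in single Neil libraries and between −0.05 and 0.02 in controls. With length and GC removed the Apex1 values were 0.16 and 0.14. It was the only one of 19 autosomes on which both Apex1 libraries lay above all 6 Neil libraries, while on 7 they lay below all of them. The set below depended on length and GC, whose removal moved 10 of the other medians by the Neil standard deviation or more and left 8. Chromosome 2 joined that set (−0.08 and −0.06, lowest Neil −0.03), and chromosome 19 left it (−0.02 and −0.04, lowest Neil −0.06). Of 8 windows of 10 Mb on chromosome 12, 5 lay above all Neil libraries (means of 0.14 to 0.26), compared with 28 of 178 windows elsewhere (15.7%), where single windows reached 0.36. The other 3 windows of chromosome 12 had Apex1 means of −0.03, −0.03 and 0.05, within the Neil range, and over all autosomes 33 of 186 windows lay above and 40 below all Neil libraries.

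The same clone showed it again after differentiation. The chromosome 12 medians were 0.29 and 0.31 in EBs (384 genes; Neil −0.04 to 0.06) and 0.25 and 0.26 in EBs + RA (406 genes; Neil −0.10 to 0.07). Among the genes named here Fancm, Sox11, Sp8, Fos, Tcl1 and Esrrb lie on this chromosome, and of these Fos and Tcl1 fell. A shift of this size is under the fold limit for calling a gene, and with 1 Apex1 clone no test of the chromosome was made.

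**Figure D5:**
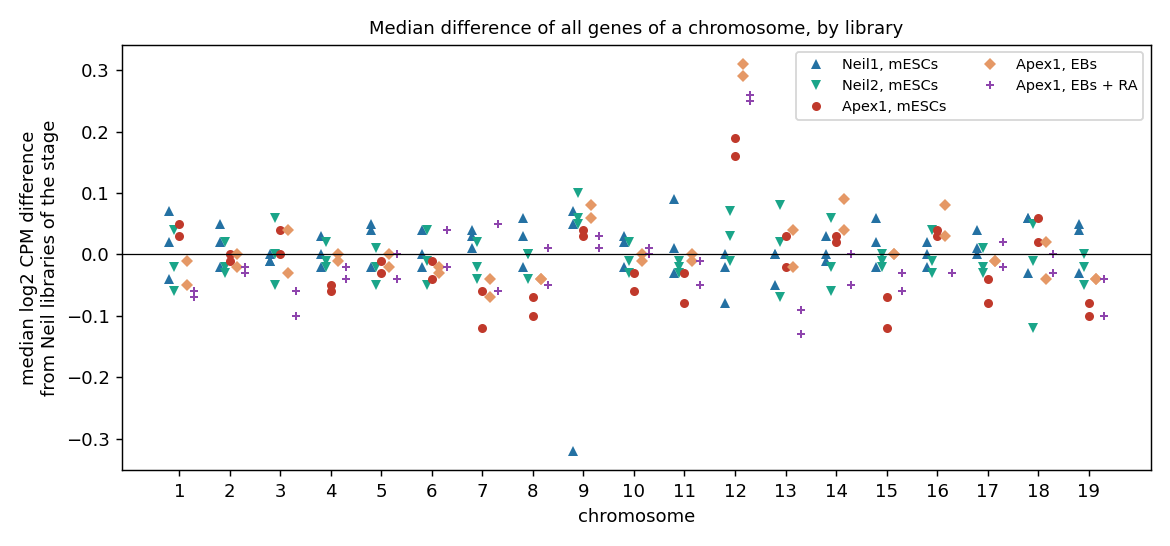
Median log2 CPM difference from the Neil libraries of the same stage, per autosome, for each Neil and Apex1 mESC library and for the Apex1 libraries of EBs and EBs + RA. Chromosome 12 is raised in all 6 Apex1 libraries (0.16 to 0.31), and Neil1 replicate 3 is low on chromosome 9 (−0.32).

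The EB libraries of the same clones show which of these differences were also present in other RNA samples, though not in another Apex1 clone. In EBs 2616 of 15350 genes (17.0%) were called, 1283 raised (8.36%) and 1333 lowered (8.68%), and in EBs + RA 3671 of 15960 (23.0%), 1896 raised (11.9%) and 1775 lowered (11.1%). With duplicates summed these fell to 612 (3.86%; 348 raised, 2.19%, and 264 lowered, 1.66%) and 782 (4.73%; 599 raised, 3.62%, and 183 lowered, 1.11%). Of the mESC calls also tested in EBs, 1007 were called in the same direction there, 21.0% of the mESC calls and 40.3% of the EB calls, and 188 in the opposite direction. With the EB duplicates summed 299 were shared, 6.12% of the mESC calls and 51.6% of the EB calls. In EBs + RA 986 were shared, 20.5% of the mESC calls and 29.6% of the other, and 310 were opposite, and with duplicates summed 272 were shared (5.57% and 40.2%).

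Fewer p53 targets were called after differentiation, but so were fewer genes in all (32.6% in mESCs, 17.0% in EBs and 23.0% in EBs + RA). Of 39 tested 6 rose and 2 fell in EBs (2 and 1 with duplicates summed) and 5 rose and 6 fell in EBs + RA (4 and 1). Over all genes 8.36% rose and 8.68% fell in EBs, and 11.9% and 11.1% in EBs + RA. Mdm2 was at 248 and 239 CPM in EBs, within the Neil range of 203 to 286 CPM (log2 0.10, FDR 0.7), and at −0.15 in EBs + RA. Pmaip1 rose in EBs (0.75, FDR 0.00682), to 82.5 and 98.8 CPM from 44.5 to 63.7 CPM, and Zmat3 at both stages (0.62 and 0.78). Trp53inp1 did not pass in either (0.41 and 0.35), and Btg2 fell in EBs + RA (−0.67). Whether the change between stages itself passes was not tested.

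Streak genes and Wnt genes were higher in the EBs of the Apex1 clone. Of 16 streak genes 10 rose and 1 fell in EBs (8 and 0 with duplicates summed), with a median of 1.37. Over all genes 8.36% rose and 8.68% fell in EBs. T was at 27.0 and 33.0 CPM against 0.636 to 6.11 CPM in Neil (log2 3.11, FDR 0.00252), Evx1 at 5.64 and 7.87 CPM against 0.286 to 0.961 CPM (3.26) and Cdx2 at 8.88 and 10.9 CPM against 1.21 to 2.05 CPM (2.66). Wnt5a was at 7.38 and 12.1 CPM against 0.731 to 2.44 CPM (2.69), and 10 of 26 Wnt genes rose and 1 fell (6 and 0 with duplicates summed). T, Evx1, Cdx2 and Wnt5a did not overlap between Apex1 and Neil EBs and were called with duplicates summed.

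Germline genes were also lowered after differentiation. Of 35 tested 4 rose and 14 fell in EBs (1 and 8 with duplicates summed), and of 36 in EBs + RA 1 rose and 15 fell (0 and 6). Shares of all genes raised and lowered were 8.36% and 8.68% in EBs and 11.9% and 11.1% in EBs + RA. Smc1b was at 5.64 and 5.20 CPM in EBs against 35.6 to 60.3 CPM in Neil (log2 −2.92, FDR 1.4e-04) and fell in EBs + RA by 2.60 on the log2 scale. Ccnd2 was raised at all 3 stages, with 61.5 and 60.3 CPM in EBs against 13.5 to 26.1 CPM in Neil (1.85) and a log2 fold change of 2.35 in EBs + RA. Egr1 was opposite in EBs, at 35.6 and 33.2 CPM against 5.11 to 16.0 CPM in Neil (1.87, FDR 0.00954).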

How the data were processed

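The authors sequenced polyadenylated RNA with an unstranded kit for 51 cycles on single reads, aligned it to NCBIM37 and counted reads per gene; the submitters' notes name TopHat2 2.0.9, Bowtie2 2.1.0 and HTSeq 0.5.4. The deposited values are raw counts by the authors for 37991 Ensembl identifiers, of which 37205 were matched to the annotation. Whether counting used strand is not given in the sources used here. Rows that name no gene held 24.7% to 28.18% of the entries in the 8 libraries and were left out.

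Counts of autosomal genes were filtered by filterByExpr, scaled by TMM and tested with edgeR 4.0.16 (robust quasi-likelihood, Benjamini-Hochberg; R 4.3.3, limma 3.58.1), with the FDR and fold limits of the study's methods. CPM are TMM-scaled over all libraries of a stage, and a fold is 2 to the power of the fitted log2 fold change. The Apex1 duplicates differed by more than sampling noise (chi-squared per degree of freedom 5.97, against 13.2 to 46.8 between clones of 1 Neil genotype). Alternatives were DESeq2 1.42.0, RLE factors, other filters and limits, single Neil genotypes, a replicate block and leaving out each library. The correction for exon length and GC (splines with 5 degrees of freedom per library) was added after seeing the data. The procedure was tested on simulated data.

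Named genes were the targeted genes and their neighbours, the 12 largest rises and falls as defined in the results, called members of the lists and 6 pluripotency genes. A few uncalled genes, Bax, Bbc3, Trp53, Polb, Xrcc1 and the longer Glb1 entry, were added after their values were seen. Members and lists were chosen with earlier results of these data known, and lists were written by hand.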

Additional observations from a re-analysis of the deposited data

Results flagged for a closer look

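Among 158 groups of 6 Neil mESC libraries checked, 15 held a library far from the other 5, where chance gives about 1 in 20. Neil1 replicate 3 stood apart for Fosb (15.2 CPM), Dusp1 (103 CPM), Klf4 (416 CPM) and Fst (5.66 CPM) on the high side, for Sox2 (404 CPM) and Tkt (628 CPM) on the low side, and for the medians of chromosome 9 (−0.32) and chromosome 11 (0.09). Neil1 replicate 2 was high for Apex1 (22.6 CPM), Myc (56.8 CPM), T (0.998 CPM), Axin2 (15.3 CPM) and Trp53 (407 CPM). Neil1 replicate 1 was high for Neil1 (31.9 CPM) and Neil2 replicate 1 for Dab2 (17 CPM).

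Some genes had all Apex1 libraries on one side of the Neil libraries in mESCs and on the other side after differentiation; the difference was not tested. In EBs these were Egr1, which fell in mESCs and had a log2 fold change of 1.87, and Dab2 (−2.11). In EBs + RA the log2 fold changes opposite to mESCs were 2.34 for Emid2, 0.53 for Ccnd3, 0.44 for Pold2, 0.38 for Lig1, 0.41 for Pold1, 0.50 for Parp1, 1.20 for Sox2 and 0.65 for Tkt, and −1.36 for Slc40a1, −0.67 for Btg2 and −1.80 for Fosl1.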

How the results depend on the processing

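The number of genes called in mESCs (5091) depended on how the Apex1 duplicates entered and on the fold limit: 3306 with duplicates summed, and 2692 to 5718 when each library was left out in turn, the lowest without Apex1 replicate 1. It was 1985 with an absolute log2 fold change above 1, and within 1.5 times under the other 11 settings (4372 to 5742), which include DESeq2 (4949). Summing took the EB count from 2616 to 612, the EB + RA count from 3671 to 782 and the count against controls from 3088 to 686. The replicate numbers did not pair the samples: same-numbered Neil1 and Neil2 libraries correlated at −0.21, −0.39 and −0.08 and others at −0.19 to 0.34. The fit with the replicate block called 4558 genes in mESCs, 2177 in EBs and 2206 in EBs + RA. The chromosome 12 mean of 0.17 ranged from 0.15 to 0.19. No named gene reversed under a call. Of 139 named genes, 15 were no longer called with duplicates summed, and 16 changed side with length and GC removed. Without Apex1 replicate 1, 22 were no longer called, among them Cdkn1b, Cdkn2c, Hrk, Pold1, Fosl1, Pou5f1 and Klf2, and without replicate 2, 12, among them Cdkn2c and Evx1. Leaving out single Neil libraries ended at most 2 calls each, all among Myc, Fen1, Neil3, Eomes, Grb10 and Dab2, and the block ended those of Fen1, Myc and Eomes. Of the 24 gene lists, 14 had a count moved over 1.5 times without Apex1 replicate 1, 6 without replicate 2 and 3 under the block. Beside those given in the results, the rises and falls without replicate 1 were 1 and 2 in the BCL2 family, 4 and 2 in the D cyclin list, 10 and 2 in imprinted genes (8 and 2 without replicate 2), 4 and 1 in the BMP list, 1 and 1 in endoderm markers and 1 and 0 in trophoblast markers. Leaving out single Neil libraries moved only the small glycosylase (0 called without Neil2 replicate 2), TET and DNMT (1 called without Neil1 replicate 1 or 3 or Neil2 replicate 2) and trophoblast counts (3 called without Neil2 replicate 1, 2 without replicate 3). The p53, germline, formative, Nodal and 2-cell-like counts stayed within 1.5 times without any single library. With length and GC removed, rises and falls were 1 and 4 in the BCL2 family, 5 and 5 in the D cyclin list, 3 and 3 downstream of the glycosylases, 4 and 4 in the Nodal list, 8 and 3 in the BMP list, 15 and 4 in imprinted genes, 7 and 0 in 2-cell-like markers and 0 and 1 in TET and DNMT enzymes. At these depths genes under 1 CPM rest on few counts.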

Other observations

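Endoderm markers differed in the EBs of the Apex1 clone in the opposite sense to streak genes. All 14 primitive and visceral endoderm markers tested were lowered in EBs, with a median log2 fold change of −1.78, although only 4 were called with duplicates summed. Of all genes, 8.68% were lowered in EBs, or 1.66% with duplicates summed. Dab2, an endocytic adaptor of visceral endoderm, was at 53.5 and 56.3 CPM in Apex1 EBs against 82.4 to 445 CPM in Neil EBs (median 219), and Hnf4a, a visceral endoderm transcription factor, at 4.62 and 3.97 CPM against 5.73 to 25.8 CPM (median 13.7). Both Apex1 values were below all Neil values for these genes, while Foxa2 overlapped (2.53 and 4.23 CPM against 3.93 to 15.9 CPM). In EBs + RA 2 of the markers were called, both lowered and neither with duplicates summed, with a median of −1.44. The number of endoderm cells and the RNA per cell cannot be told apart in these libraries.

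H19, an imprinted noncoding RNA, was at 270.2 and 215 CPM in Apex1 EBs and between 822 and 2389 CPM in Neil EBs (log2 −2.49, FDR 0.00202 in edgeR's quasi-likelihood test, also called with duplicates summed). Ccnd1 had a log2 fold change of 3.0 in EBs + RA (FDR 2.4e-05), against 0.95 in mESCs.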
